A study of Mus musculus with 24 samples.

Results

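Matrix metalloproteinases (MMPs), ADAMTS proteases and tissue inhibitors of metalloproteinases (TIMPs) were followed in RNA-seq libraries of mouse heart taken 3 weeks after myocardial infarction (MI). Members were taken by gene symbol alone: Mmp followed by a number, Adamts followed by a number, and Timp1 to Timp4. This gave 46 of the 21878 genes in the count table, of which 23 encode MMPs, 19 ADAMTS proteases and 4 TIMPs. A filter on low counts, applied to all genes alike, left 35 members among 13501 genes for testing: 15 MMPs, 16 ADAMTS genes and 4 TIMPs.

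All mice were ovariectomised (OVX) and all had an infarction, so no group is intact or uninjured. They received AAV9, an adeno-associated virus used to deliver genes to the heart, either empty (AAV9-Empty) or overexpressing the microRNA miR-21 (AAV9-OE miR-21), and either swam as training before the infarction or did not. The 4 groups are called here empty control (AAV9-Empty, Control, n = 6), empty swim (AAV9-Empty, Swim, n = 6), miR-21 control (AAV9-OE miR-21, Control, n = 6) and miR-21 swim (AAV9-OE miR-21, Swim, n = 5 analysed). None of strain, age, the time of vector delivery, its promoter, the part of the heart sampled and any pooling of mice is given in the sources used here. The level of miR-21 itself is not analysed here, so the vector labels were not checked on it.

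MMPs are zinc proteases that cut collagen, gelatin, elastin and other parts of the extracellular matrix, and most are made as inactive proforms. ADAMTS proteases are secreted relatives with thrombospondin repeats: one branch cuts proteoglycans such as aggrecan and versican, another removes the N-terminal propeptide of procollagen. TIMPs bind the active site of these enzymes and block it, and Timp3 also inhibits several ADAMTS proteases. After infarction the balance of proteases and inhibitors is known to bear on scar formation, dilation and rupture.

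The 7-base seed of miR-21 (bases 2 to 8, in capitals) is shown with the sites in 3' untranslated regions that match it, since the vector carries this microRNA. The mature sequence is that of RefSeq, and UTRs are those of the GENCODE M21 annotation of GRCm38, with the 7 matching bases in capitals inside 29-base windows.
mmu-miR-21a-5p: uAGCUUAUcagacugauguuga
Timp3: ttgagctttcaATAAGCTatagctttgtt
Timp2: cgtcttaaaaaATAAGCTgtcccaaggac
Adamts6: catgcggaaagATAAGCTggcttagtaat
Adamts20: tgagggagtggATAAGCTtgaagcatcca
Reck: tacagtttgaaATAAGCTattaatgtaat

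Of 44 members with a UTR in that annotation, 4 held the site ATAAGCT, at UTR base 2325 in Timp3, 985 in Adamts6 and 930 in Adamts20, and past the midpoint of the UTR in Timp2. The share over all genes was 7.20% (1497 of 20785). Reck, a membrane-anchored inhibitor of MMPs and a well known target of miR-21, held 1 site at base 1042, and in Reck and Timp3 an A follows the site. A match is a run of letters and does not show binding. None of these 5 genes passed the test with the miR-21 vector: the log2 fold changes without swimming were 0.00 for Timp3, -0.63 for Timp2, -0.36 for Adamts6, -0.98 for Adamts20 and -0.17 for Reck (edgeR adjusted p = 0.996, 0.104, 0.0700, 0.175 and 0.443). With swimming they were 0.21, 0.31, -0.04, 0.08 and -0.05 in the same order (adjusted p = 0.338, 0.507, 0.904, 0.941 and 0.90).

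A run of 10 MMP genes lies side by side in the RefSeq gene order of GRCm38.p6, with 0 other protein-coding genes between them: Mmp13, Mmp12, Mmp1b, Mmp3, Mmp1a, Mmp10, Mmp8, Mmp27, Mmp20 and Mmp7. The promoters of Mmp3 and Mmp12, the 2 members of this run that passed a test, are shown with that of Timp1, the inhibitor that fell in the same comparison. Each runs from 250 bases before to 50 after a start site in RefSeq, on the plus strand of GRCm38.p6: chr9:7445572-7445871 for Mmp3, chr9:7347124-7347423 for the second of the Mmp12 starts, and chrX:20869916-20870215 for Timp1. Capitals mark the AP-1 motif TGANTCA and the motif TATAAA in Mmp3 and Mmp12, and the GC box GGGCGG, here on the other strand, in Timp1. The window of the first Mmp12 start, chr9:7344147-7344446, held none of these motifs and is not printed.
Mmp3: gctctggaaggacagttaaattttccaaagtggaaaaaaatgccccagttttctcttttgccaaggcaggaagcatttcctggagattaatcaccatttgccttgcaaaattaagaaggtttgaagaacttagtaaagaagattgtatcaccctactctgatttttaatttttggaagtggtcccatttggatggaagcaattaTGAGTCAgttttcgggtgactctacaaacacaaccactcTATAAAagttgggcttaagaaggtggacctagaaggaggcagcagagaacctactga
Mmp12: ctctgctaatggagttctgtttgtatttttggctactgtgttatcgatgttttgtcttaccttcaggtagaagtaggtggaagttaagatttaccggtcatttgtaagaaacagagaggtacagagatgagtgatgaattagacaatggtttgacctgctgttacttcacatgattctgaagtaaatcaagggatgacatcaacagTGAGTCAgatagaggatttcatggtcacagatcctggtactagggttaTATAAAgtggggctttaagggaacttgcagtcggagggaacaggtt
Timp1: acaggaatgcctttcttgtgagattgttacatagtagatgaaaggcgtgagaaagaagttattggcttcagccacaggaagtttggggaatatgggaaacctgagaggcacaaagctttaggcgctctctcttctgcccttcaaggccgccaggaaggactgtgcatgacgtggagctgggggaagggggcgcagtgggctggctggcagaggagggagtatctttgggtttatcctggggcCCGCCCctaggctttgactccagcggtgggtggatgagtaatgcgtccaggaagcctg

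Of the 46 members, 32 matched a RefSeq promoter. TGANTCA, read on both strands, stood in 8 of the 32 (25.0%), against 7.81% of all 32851 promoters of the same length. All 8 belong to the run of neighbours: Mmp3, Mmp7, Mmp10, Mmp12, Mmp13, Mmp1a, Mmp1b and Mmp20. TATAAA stood in 11 of the 32 (all promoters 13.6%) and GGGCGG in 18 (all promoters 35.7%), with the 2 found together only in Adamts1. Members were counted by gene, with a match at any of their starts, and all promoters singly, so these shares differ in unit. The 32 members had 35 promoters. AP-1 is the pair of Fos and Jun proteins known for driving several MMP genes. Its binding was not measured here, and no match says only that these letters are not in this window.

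Libraries held 12744241 to 14657630 counts. Cardiomyocyte markers (7 of 7 measured) summed to 27500 to 44100 FPKM (fragments per kilobase of gene and per library total), and 0 of the 7 were at 0 throughout. Replicates 2 and 5 of empty control and replicate 2 of miR-21 swim stand apart. Of 8 adipocyte markers in the table, Adipoq stood at 25.5 to 27 CPM (counts scaled to a common library size) in these 3 libraries and at most 2.32 in the other 20, Cfd at 114 to 148 against at most 8.47, while Fabp4 overlapped (593 to 740 against 585 to 893). The same 3 were highest in summed neutrophil markers (413 to 2500 FPKM against at most 94.5), macrophage markers (1300 to 2140 against at most 768) and activated fibroblast markers (862 to 1240 against at most 754), and lowest in cardiomyocyte markers (at most 32100 against at least 37100). Member calls are therefore also given without them. Numbers in the sample titles form one series in both groups without swimming, another in empty swim, and both in miR-21 swim (replicates 1 and 2 the first, 3 to 5 the second). What the series stand for is not given in the sources used here, so with the empty vector swimming and title series cannot be told apart. In whole-tissue RNA, fewer cells of a type and less RNA per cell cannot be told apart either.

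Per unit of length, inhibitors and a few broadly expressed proteases led. By median FPKM over the 23 libraries Timp3 was first at 80.2, followed by Timp2 at 45.6, the gelatinase Mmp2 at 36.3, the membrane-type Mmp15 at 32.5, Timp4 at 23.9, Adamts1 at 17.5, Adamts10 at 14.5, Mmp14 at 11.1, Timp1 at 10.8 and Adamts7 at 10.3. Ranges of neighbours in this order overlapped, for example 55.6 to 120 for Timp3 and 29.4 to 132 for Timp2. At the low end of those tested, Adamts20, Mmp16 and Adamts19 had medians of 0.0512, 0.0935 and 0.105 FPKM.

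The 11 members that did not pass the filter were mostly silent. Mmp1a and Mmp1b, the mouse counterparts of interstitial collagenase, and Mmp20, an enamel protease, had 0 counts in all 23 libraries. Mmp7 and Adamts13, the latter a cleaver of von Willebrand factor made mainly in liver, had 1 count each in all, Mmp10 had 5 and Mmp21 had 7. Adamts18, Adamts16, Mmp24 and Mmp27 reached at most 10, 22, 11 and 23 counts in a library. Of the run of 10 neighbouring MMP genes, 4 passed: Mmp3, Mmp8, Mmp12 and Mmp13.

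Summed over each class, FPKM was highest in the 3 libraries that stand apart. MMPs summed to 366, 242 and 230 FPKM there (empty control 2 and 5, miR-21 swim 2), and to 182 in empty control 4. In the other 19 they lay between 66.8 and 128. TIMPs summed to 249, 292 and 315 in the same 3 and to 118 to 237 elsewhere. The ratio of summed TIMP to summed MMP FPKM had a median of 1.45 in empty control (0.679 to 1.65), 1.59 in empty swim (1.34 to 2.03) and 1.74 in miR-21 control (1.18 to 2.04). In miR-21 swim it was 1.68, 1.37, 2.19, 1.38 and 1.97 in replicates 1 to 5, so all groups overlapped.

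With the empty vector, 6 of the 35 members changed with swimming: Mmp3, Mmp12, Timp1, Adamts10 and Adamts15 fell and Adamts17 rose (edgeR's quasi-likelihood test with Benjamini-Hochberg adjustment over 13501 genes, adjusted p under 0.05). Over all genes 7.46% were called, 4.18% up and 3.28% down. With the miR-21 vector and no swimming, Adamts4 and Mmp2 fell (2 of 35, against 2.25% of all genes and 1.37% down). In swimming mice, Adamts9 and Adamts19 were lower with miR-21 than with the empty vector (2 of 35, against 4.58% of all genes and 2.71% down). In swimming mice 2 of 35 lies near the 4.58% of all genes. Without swimming it lies above the 2.25%, but on 2 genes only, and that difference was not tested. Swimming with the miR-21 vector called 0 members (0.170% of all genes), and so did the interaction, which is the swimming effect under miR-21 minus that under the empty vector (0.541% of all genes). By an unadjusted p under 0.05 the members numbered 16, 23, 10, 5 and 17 in these 5 comparisons, against 23.3, 28.4, 19.8, 18.8 and 21.5% of all genes, and DESeq2 called 8, 14, 5, 1 and 7 members, of 39, 36, 38, 27 and 39 given an adjusted p, against 9.51, 8.76, 6.48, 3.27 and 4.91% of all genes. With a term for the title series the calls were 0, 10, 5, 4 and 0 of 35, against 1.21, 6.75, 5.24, 7.97 and 0.185% of all genes, so each of the 6 with swimming under the empty vector was lost. That term, used for single genes below as well, is estimated from miR-21 swim alone, the 1 group with both series. Replicate 2 of that group, which stands apart, is in the first series. Comparisons that share a group are not independent: empty control serves in the first and second, empty swim in the first and in the comparison of vectors with swimming.

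**Figure D1:**
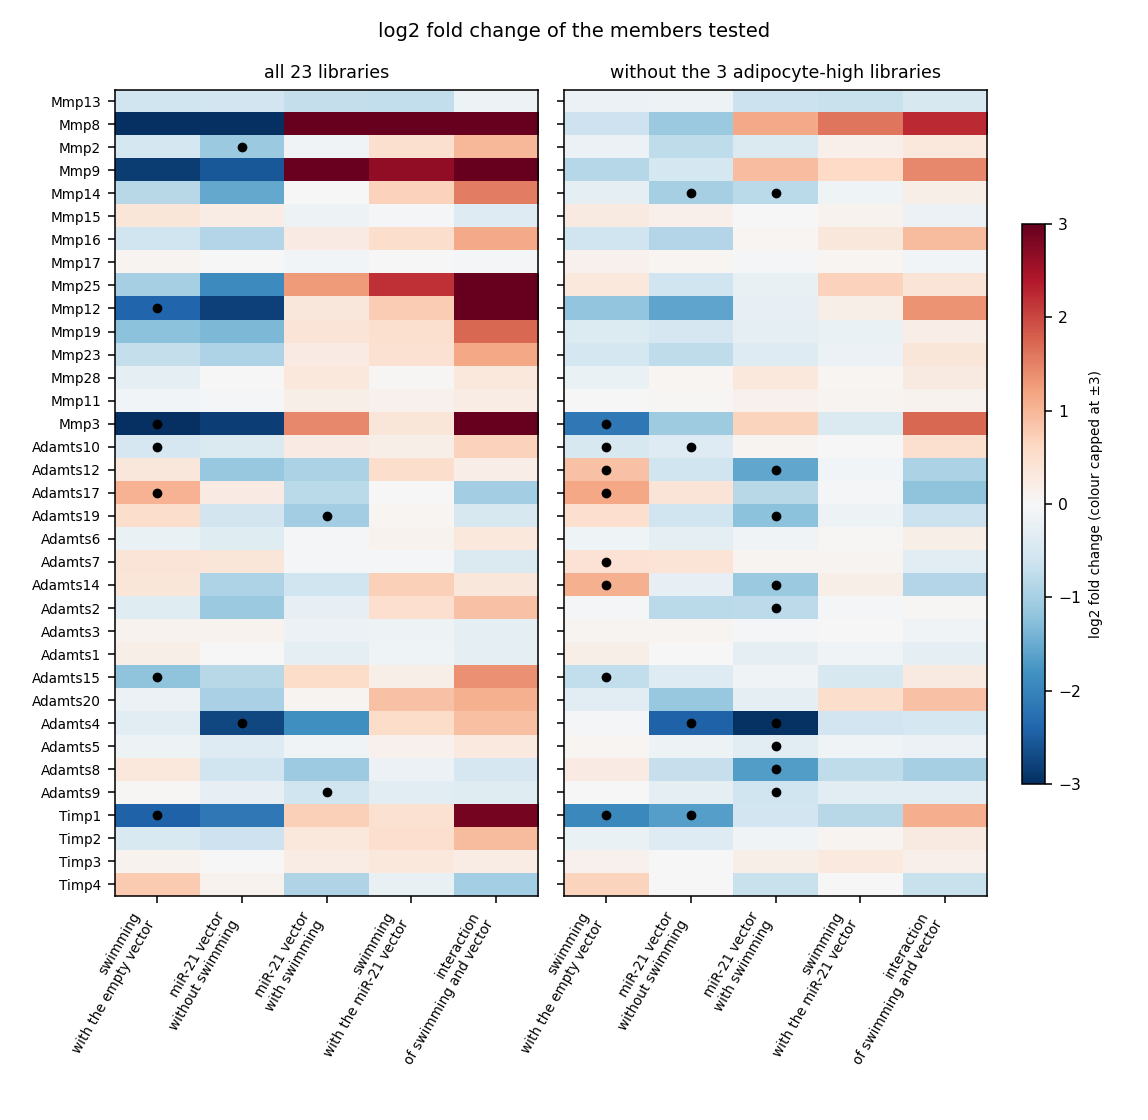
Colours give the log2 fold change of each of the 35 members tested (rows) in the 4 comparisons and the interaction (columns), with all 23 libraries on the left and without 3 libraries on the right, capped at 3 in either direction. Dots mark an adjusted p under 0.05. The strong blue and red cells of Mmp3, Mmp8, Mmp9 and Mmp12 on the left are paler on the right, and 9 dots stand in the column of miR-21 with swimming on the right against 2 on the left.

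Without the 3 libraries the calls moved. For swimming with the empty vector, Mmp3, Timp1, Adamts10 and Adamts15 fell and Adamts7, Adamts12, Adamts14 and Adamts17 rose (8 of 35, against 11.6% of all genes, 6.06% up and 5.55% down). With the miR-21 vector and no swimming, Adamts4, Adamts10, Mmp14 and Timp1 fell (4 of 35, against 5.76% of all genes and 2.87% down). In swimming mice 9 members were lower with miR-21: Adamts2, Adamts4, Adamts5, Adamts8, Adamts9, Adamts12, Adamts14, Adamts19 and Mmp14 (against 17.3% of all genes and 8.62% down). Swimming with the miR-21 vector and the interaction again called 0 members (1.0 and 0.396% of all genes), with 3 and 5 members at an unadjusted p under 0.05 (15.4 and 12.9% of all genes).

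Direction was more uniform than the calls. With the miR-21 vector and no swimming 28 of the 35 members had a log2 fold change below 0, with a median of -0.63, where the median over all genes was -0.01. Of the 23 with an unadjusted p under 0.05, 22 were lower (16.0% of all genes were lower by that rule), and Adamts7, a protease of cartilage oligomeric matrix protein, was higher. Without the 3 libraries, 26 members were below 0 and the median was -0.40. Most marker lists of cell types, though not that of cardiomyocytes, were lower in the same comparison. Of activated fibroblast markers 8 of 8 were below 0 (median -2.01, 7 at an unadjusted p under 0.05, 1 called). So were 6 of 6 neutrophil markers (median -2.84, 5 at that p, 0 called) and 8 of 8 macrophage markers (median -0.88, 5 at that p, 0 called). Resting fibroblast markers had a median of -0.45, with 5 of 7 below 0. In the 20 libraries these medians were -1.42 for activated fibroblast (2 of 8 called), -0.42 for neutrophil, -0.30 for macrophage and -0.19 for resting fibroblast markers (0 called in each of the last 3). Over all 23 libraries, 7 of 7 mesothelial markers were below 0 (median -1.26, 0 called). So were 4 of 5 each of smooth muscle and pericyte (median -0.34, 2 called), adipocyte (-4.76, 0 called) and endothelial markers (-0.10, 0 called). Cardiomyocyte markers went the other way, with 7 of 7 above 0 (median 0.26, 0 called). The part of these cell types in the members' values was not tested. For swimming with the empty vector the median was -0.27 over members, -0.71 over the 15 MMPs and 0.08 over the 16 ADAMTS genes. Without the 3 libraries it was -0.05 over members.

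Stromelysins cut proteoglycans, fibronectin and basement membrane and activate other MMPs. Mmp3, stromelysin-1, had the largest fold change among the members called. Its CPM ran from 9.60 through a median of 30.6 to 256 in empty control, and from 2.29 through 5.06 to 7.68 in empty swim. Every empty control library was above every empty swim library. The log2 fold change was -3.91 ± 0.82 (SE, n = 6 and 6, edgeR adjusted p = 0.00704). In miR-21 control Mmp3 ran from 4.20 through 6.09 to 26.9 CPM, and miR-21 swim held 4.73, 32.9, 4.76, 12.9 and 7.002 CPM in replicates 1 to 5. Replicate 2 was the high one. The change with the miR-21 vector without swimming was -2.83 ± 0.77 (adjusted p = 0.0518). Here and below, a count such as 6 of 6 sets each library of the first group against the mean log2 CPM of the other: all 6 were below that mean for Mmp3, yet the groups overlapped, since the highest miR-21 control library stood above 3 of the empty control libraries. Without the 3 libraries, the fall with swimming was -2.15 ± 0.58 (adjusted p = 0.0224) and that with miR-21 was -1.07 ± 0.55 (adjusted p = 0.263). Fitted with the title series as a term, the change with swimming was -2.70 (adjusted p = 0.459). Mmp11, stromelysin-3, lay within 9.41 to 14.3 CPM in all libraries and passed no test.

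Mmp12, the macrophage metalloelastase, lies in the same run of MMP genes as Mmp3, with Mmp1b between them. It ran from 1.12 through 5.38 to 21.6 CPM in empty control and from 0.566 through 1.33 to 2.92 in empty swim, and the ranges overlapped. The log2 fold change with swimming was -2.39 ± 0.73 (edgeR adjusted p = 0.0486), a call kept by 12 of 30 alternatives. In miR-21 control it ran from 0.230 through 0.723 to 3.41 CPM, and miR-21 swim held 0.525, 4.24, 0.702, 2.43 and 1.32 CPM. The highest 4 libraries for Mmp12 included all 3 that stand apart, together with empty control 4. Without the 3, the change with swimming was -1.18 ± 0.66 (adjusted p = 0.274). Some of its exon bases overlap those of Mmp1b on the other strand, which had 0 counts.

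Gelatinases degrade denatured collagen and basement membrane collagen. Mmp2, gelatinase A of fibroblasts, ran from 90.6 through 185 to 284 CPM in empty control, from 103 through 126 to 178 in empty swim and from 69.4 through 84.1 to 99.98 in miR-21 control. The 5 libraries of miR-21 swim held 87.0, 217, 82.1, 128 and 84.8 CPM. In empty control 3 libraries stood at 250 or more and the other 3 within the range of empty swim or below it, so the groups overlapped. The log2 fold change with the miR-21 vector without swimming was -1.12 ± 0.28 (edgeR adjusted p = 0.0436, lower in 6 of 6), kept by 14 of 30 alternatives, and without the 3 libraries -0.76 ± 0.23 (adjusted p = 0.0603). With swimming the difference between vectors was -0.12 ± 0.29 (adjusted p = 0.861).

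Mmp9, gelatinase B, which neutrophils and macrophages store and secrete, was rare in most libraries and high in the 3 that stand apart. Empty control ran from 1.49 through 3.82 to 33.8 CPM, empty swim from 0.425 through 0.682 to 3.98, and miR-21 control from 0.675 through 1.16 to 5.82. Replicates 1 to 5 of miR-21 swim held 1.73, 47.5, 3.51, 5.67 and 0.412 CPM. No comparison passed: the log2 fold change with swimming was -2.85 ± 1.05 with the empty vector and 2.66 ± 1.05 with miR-21 (edgeR adjusted p = 0.103 and 0.194), and the interaction was 5.51 ± 1.48 (adjusted p = 0.0677). Without the 3 libraries these were -0.85, 0.60 and 1.45 (adjusted p = 0.542, 0.783 and 0.629). Mmp8, neutrophil collagenase, followed the same libraries, with 35.9 CPM in replicate 2 of miR-21 swim and at most 1.95 in its other replicates. The part of neutrophil or macrophage content in these values was not tested.

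**Figure D2:**
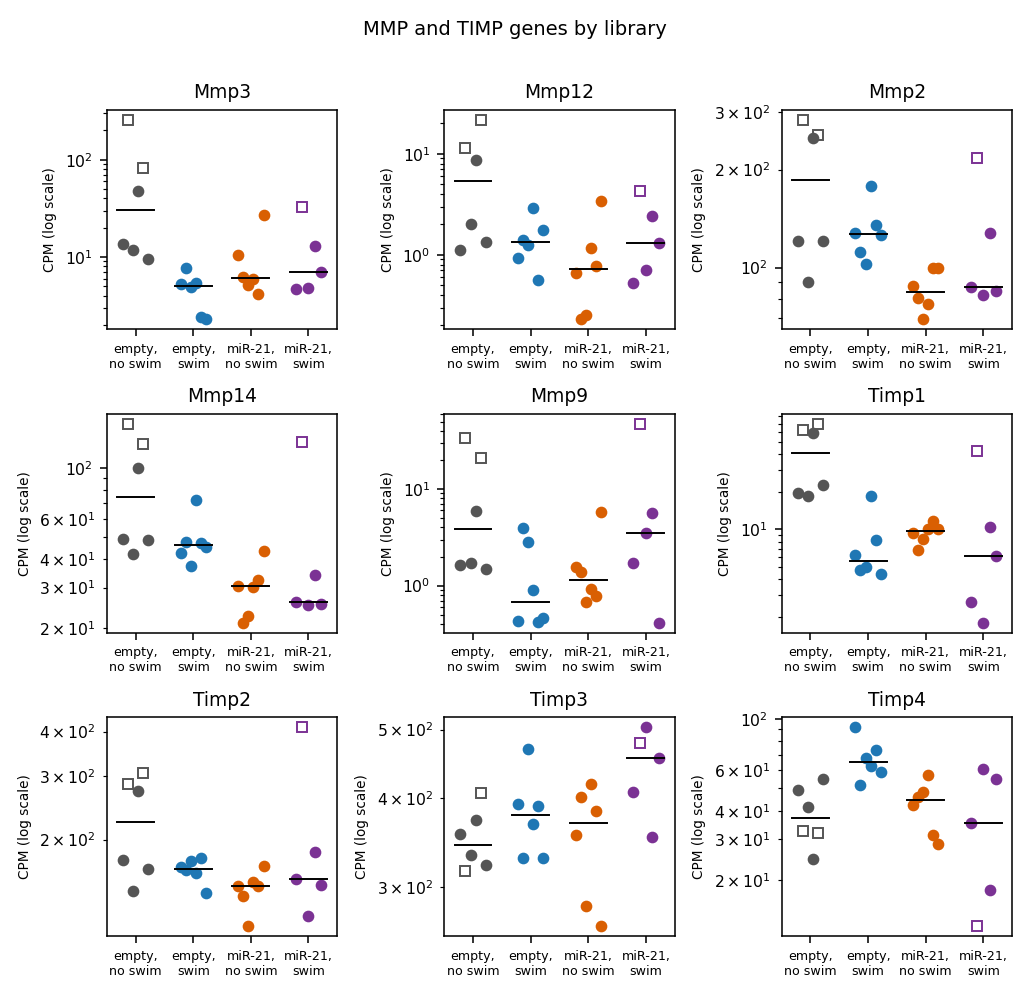
Points give the CPM of 9 MMP and TIMP genes in each of the 23 libraries on log axes, by group, with a line at the group median. Open squares are the 3 libraries highest in adipocyte markers. For Mmp3, Mmp9, Mmp12, Mmp14 and Timp1 the squares lie at or near the top of their groups, whereas for Timp4 they lie low.

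Membrane-bound MMPs act at the cell surface, and Mmp14 (MT1-MMP) activates the proform of Mmp2. Mmp14 ran from 42.0 through 74.4 to 156 CPM in empty control, from 37.2 through 46.0 to 72.7 in empty swim and from 21.0 through 30.3 to 43.2 in miR-21 control. In miR-21 swim it stood at 25.8, 130, 25.1, 33.9 and 25.4 CPM, with 4 of 5 below every empty swim library. With miR-21 the log2 fold change was -1.54 ± 0.41 without swimming (edgeR adjusted p = 0.0507) and -0.01 ± 0.42 with it (adjusted p = 0.993). In the remaining 20 libraries, both passed, at -0.996 ± 0.247 (adjusted p = 0.0292) and -0.81 ± 0.26 (adjusted p = 0.0393). Of the libraries left out, replicate 2 of miR-21 swim is the 1 that belongs to the comparison in swimming mice. Mmp15 (MT2-MMP), the most abundant of this group, ran from 85.5 to 189 CPM and passed no test, nor did Mmp16, Mmp17 or Mmp25.

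Of the remaining MMPs tested, Mmp13, Mmp19, Mmp23 and Mmp28 passed no test. Mmp19 and Mmp23 lay lower in empty swim than in empty control on average (log2 fold changes -1.24 ± 0.43 and -0.71 ± 0.33, edgeR adjusted p = 0.0857 and 0.195) and lower in miR-21 control (-1.35 ± 0.44 and -0.93 ± 0.33, adjusted p = 0.0757 and 0.0957). Their 4 highest libraries again held all 3 that stand apart. Mmp28, epilysin, stayed between 6.003 and 12.8 CPM. Over the 15 MMPs tested, 2 were called with swimming under the empty vector (7.46% of all genes) and 1 with miR-21 at rest (2.25%). In the other comparisons 0 were called. There the shares of all genes were 4.58% with miR-21 in swimming mice, 0.170% for swimming with miR-21 and 0.541% for the interaction.

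Among ADAMTS proteases that cut proteoglycans (7 members, all tested), Adamts4, aggrecanase-1, differed most. It was scarce: 14 to 59 counts in empty control libraries and 1, 1, 9, 1, 6 and 12 in miR-21 control. In CPM, empty control ran from 1.0003 through 2.76 to 3.70, empty swim from 0.371 through 2.14 to 3.41, and miR-21 control from 0.0737 through 0.252 to 0.852. All 6 miR-21 control libraries were below all 6 of empty control. The log2 fold change was -2.74 ± 0.63 (edgeR adjusted p = 0.0343), and -2.43 ± 0.57 without the 3 libraries (adjusted p = 0.0194). Swimming mice with miR-21 held 0.225, 1.65, 0.156, 0.368 and 0.247 CPM. There the difference from empty swim was -1.84 ± 0.64 (adjusted p = 0.0999), and -2.96 ± 0.67 without replicate 2 and the other 2 libraries (adjusted p = 0.00424). The lowest empty swim library, at 5 counts, was level with the second highest of miR-21 swim.

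Adamts9, a protease that cuts versican, was lower with miR-21 in swimming mice. Empty swim ran from 36.7 through 45.6 to 51.9 CPM, and miR-21 swim held 30.4, 29.4, 23.4, 31.0 and 32.04 CPM. All 5 lay below all 6 of empty swim, replicate 2 included. The log2 fold change was -0.61 ± 0.12 (n = 5 and 6, edgeR adjusted p = 0.00693), and the call was kept by 30 of 30 alternatives, with adjusted p from 0.000333 to 0.0254. Without those 3, it was -0.60 ± 0.14 (adjusted p = 0.00487). Empty control ran from 32.6 through 44.4 to 51.4 CPM and miR-21 control from 31.9 through 34.6 to 47.1, which did not pass (-0.24 ± 0.12, adjusted p = 0.178). The effect of swimming did not differ between vectors by test (interaction -0.36 ± 0.17, adjusted p = 0.218). Of 5 endothelial markers tested, 4 were below 0 with miR-21 in swimming mice and 3 were called lower (2.71% of all genes were). For swimming under the empty vector, 4 were above 0 and 2 were called higher (4.18% of all genes were). Adamts9 stood at 0.03 ± 0.12 in that comparison (edgeR adjusted p = 0.887). The list summed to 311 to 397 FPKM in empty swim and 258 to 321 in miR-21 swim, with 0 of the 5 at 0. The part of endothelial content in the Adamts9 value was not tested. In the GENCODE annotation 2 genes with no given function name overlap exons of Adamts9 on the other strand.

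Adamts15, another proteoglycanase, was lower in all 6 empty swim libraries (10.1 through 13.7 to 18.5 CPM) than in any of empty control (20.9 through 25.1 to 64.6). On the log2 scale the difference was -1.21 ± 0.34 (edgeR adjusted p = 0.0350), and -0.75 ± 0.16 without the 3 libraries (adjusted p = 0.00389). Adding the title series to the fit gave -0.05 (adjusted p = 0.977). In miR-21 control it ran from 12.1 through 18.9 to 24.0 CPM, and in miR-21 swim it held 10.9, 49.8, 11.3, 15.9 and 13.8. Its neighbour in the genome, Adamts8, ran between 0.156 and 3.83 CPM and did not pass with all libraries. With the 3 left out, Adamts8 was lower with miR-21 in swimming mice (-1.68 ± 0.38, adjusted p = 0.00383).

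Adamts1 and Adamts5, also neighbours and both versicanases, passed no test with all libraries. Adamts1, the most abundant ADAMTS gene per length, ran from 52.6 to 119 CPM. Adamts5, aggrecanase-2, ran from 28.7 to 65.3 CPM. In the remaining 20 libraries, Adamts5 was lower with miR-21 in swimming mice (-0.33 ± 0.08, edgeR adjusted p = 0.00568).

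**Figure D3:**
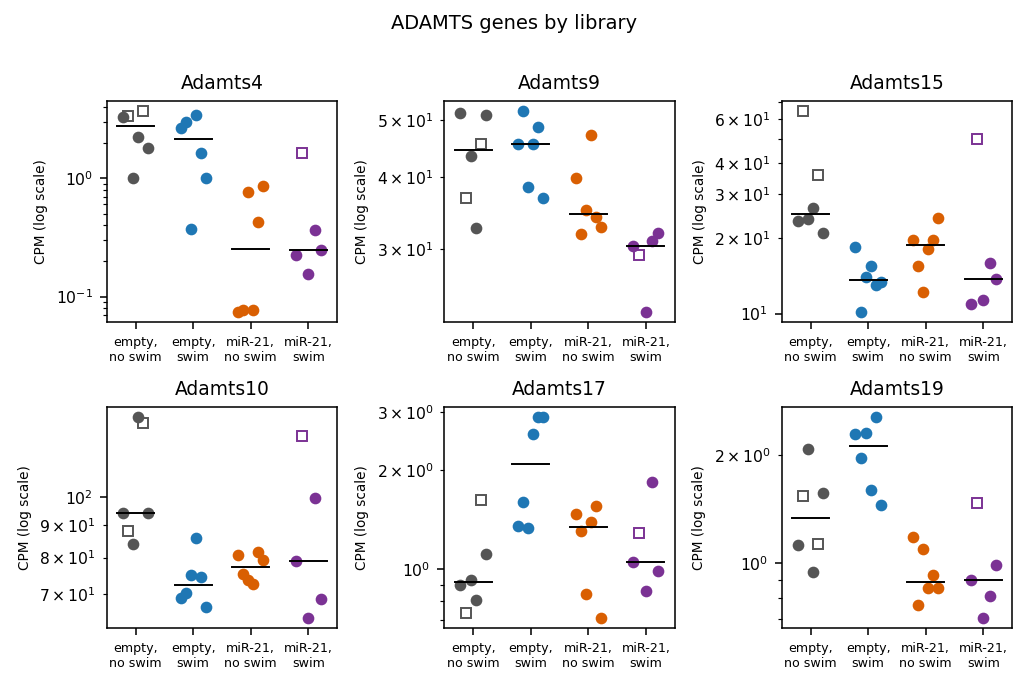
Points give the CPM of the 6 ADAMTS genes called in any comparison, in each of the 23 libraries on log axes, by group, with a line at the group median. Open squares are the 3 libraries highest in adipocyte markers. The 5 miR-21 swim points of Adamts9 lie between 23.4 and 32.04 CPM, below the lowest empty swim point at 36.7, and 3 miR-21 control libraries hold 1 count of Adamts4 each.

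Procollagen N-proteinases trim fibrillar procollagens before fibrils form, and 3 members do so. Adamts2, the main one, ran from 48.0 through 74.6 to 122 CPM in empty control and from 27.1 through 37.2 to 43.4 in miR-21 control. These ranges did not touch, yet the log2 fold change of -1.11 ± 0.32 did not pass (edgeR adjusted p = 0.0595). In swimming mice the difference with miR-21 was -0.24 ± 0.33 (adjusted p = 0.734), and -0.78 ± 0.25 without the 3 libraries (adjusted p = 0.0407). Adamts14 gave -0.59 ± 0.39 there (adjusted p = 0.413), and -1.12 ± 0.25 without the 3 (adjusted p = 0.00403). Adamts3 passed neither way.

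Adamts10, Adamts17 and Adamts19 passed a test among the ADAMTS genes of other or less known action. Adamts10, which binds fibrillin microfibrils, ran from 84.1 through 94.2 to 134 CPM in empty control, 66.6 through 72.3 to 85.8 in empty swim and 72.7 through 77.4 to 81.6 in miR-21 control. The change with swimming was -0.51 ± 0.14 (edgeR adjusted p = 0.0281), lower in 6 of 6 libraries with a small overlap. With miR-21 it was -0.43 ± 0.14 (adjusted p = 0.0700), though all 6 libraries of miR-21 control were below all of empty control. Without those 3, these were -0.47 and -0.40 (adjusted p = 0.0116 and 0.0498), and the change with swimming was -0.11 once the title series was in the fit (adjusted p = 0.874). Replicates 1 to 5 of miR-21 swim held 78.9, 125, 64.0, 99.6 and 68.7 CPM.

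Adamts17, a relative of Adamts19 whose human counterpart is mutated in a Weill-Marchesani-like syndrome, was the 1 member that rose in the fit of all 23 libraries. Empty control ran from 0.735 through 0.914 to 1.63 CPM and empty swim from 1.34 through 2.09 to 2.91. Its log2 fold change was 1.04 ± 0.28 (edgeR adjusted p = 0.0248, higher in 6 of 6) and 1.17 ± 0.31 without the 3 libraries (adjusted p = 0.0162), and the counts behind it were 11 to 26 against 18 to 41. In miR-21 control it ran from 0.710 through 1.35 to 1.56 CPM, and miR-21 swim held 1.05, 1.29, 0.859, 1.84 and 0.989. With the title series as a term the value was 0.97 (adjusted p = 0.450).

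Adamts19, known for a role in heart valves, was lower with miR-21 in swimming mice. Empty swim ran from 1.45 through 2.12 to 2.55 CPM (19 to 36 counts), and miR-21 swim held 0.901, 1.47, 0.702, 0.810 and 0.989. Replicate 2 alone reached into the range of empty swim. On the log2 scale the difference was -1.04 ± 0.24 (edgeR adjusted p = 0.0163) and -1.24 ± 0.27 without the 3 libraries (adjusted p = 0.00263). Without swimming, miR-21 control ran from 0.767 through 0.888 to 1.18 CPM against 0.943 through 1.33 to 2.07 in empty control (-0.56 ± 0.23, adjusted p = 0.132). In total 3 of the 16 ADAMTS genes tested were called with swimming under the empty vector (7.46% of all genes). With miR-21, 1 was called at rest (2.25% of all genes) and 2 in swimming mice (4.58%).

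Timp1, the inducible inhibitor of the family, varied most among the TIMPs. Empty control ran from 18.4 through 40.6 to 69.8 CPM, empty swim from 4.44 through 5.64 to 18.4 and miR-21 control from 6.91 through 9.71 to 11.7. In miR-21 swim it stood at 2.63, 42.1, 1.79, 10.5 and 6.10 CPM, with replicate 2 alone inside the range of empty control. The highest empty swim library was level with the lowest of empty control, and no miR-21 control library reached it. Its log2 fold change with swimming and the empty vector was -2.41 ± 0.59 (edgeR adjusted p = 0.0179), and -1.92 ± 0.45 without the 3 libraries (adjusted p = 0.0105). The miR-21 vector without swimming gave -2.15 ± 0.59 (adjusted p = 0.0518), and -1.66 ± 0.45 without the 3 (adjusted p = 0.0388). Adding the title series brought the change with swimming to -0.54 (adjusted p = 0.848), and that term is estimated from miR-21 swim alone, the 1 group with both series, whose high library is in the first series.

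Timp1 also took a different share of the inhibitors. Of the summed FPKM of the 4 TIMPs it held 12.7 to 29.99% in empty control, 2.98 to 11.7% in empty swim, 4.96 to 8.73% in miR-21 control, and 1.94, 17.5, 1.15, 7.93 and 3.92% in miR-21 swim. Timp3 held 28.8 to 46.3% in empty control and 43.4 to 54.8% in miR-21 control. The share of Timp4 was 5.64 to 17.4% in empty control and 18.5 to 26.4% in empty swim.

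**Figure D4:**
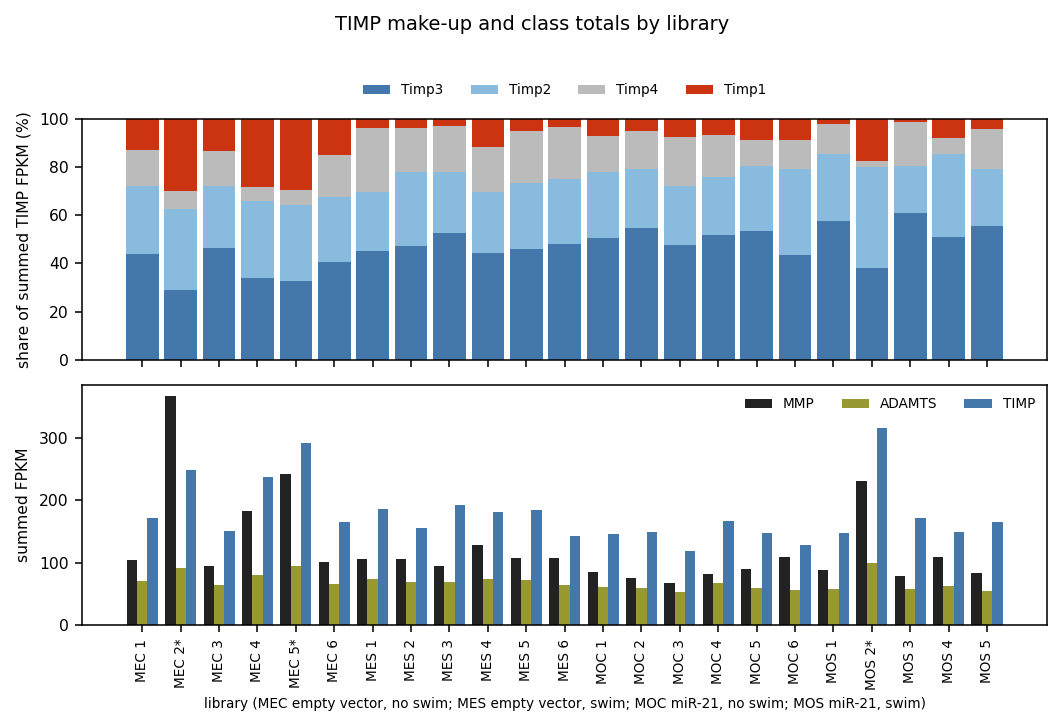
The upper bars give the share of each TIMP in the summed TIMP FPKM of each of the 23 libraries, and the lower bars the summed FPKM of the MMP, ADAMTS and TIMP genes. Stars mark the 3 libraries highest in adipocyte markers. Timp1 holds 12.7% or more in every empty control library and in replicate 2 of miR-21 swim, and less in the other 16 libraries.

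Timp2, which inhibits MMPs and also takes part in the activation of pro-Mmp2 by Mmp14, ran from 144 through 224 to 306 CPM in empty control, 142 through 166 to 178 in empty swim and 115 through 148 to 169 in miR-21 control. The 5 libraries of miR-21 swim held 155, 411, 123, 185 and 149 CPM. No comparison passed. The value nearest to passing was miR-21 without swimming (-0.63 ± 0.24, edgeR adjusted p = 0.104), which without the 3 libraries was -0.38 (adjusted p = 0.122).

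Timp3, bound to the matrix and abundant in heart, lay within 264 to 504 CPM in all libraries. Its medians were 344 in empty control, 379 in empty swim and 370 in miR-21 control, and miR-21 swim held 409, 479, 504, 353 and 456. The change with swimming under miR-21 was 0.33 ± 0.12 (edgeR adjusted p = 0.174, higher in 5 of 5), and 0.30 without the 3 libraries (adjusted p = 0.265). Timp3 lies within Syn3, a synapsin gene, and shares 1733 exon bases with it on the other strand, and Timp4 shares 90 with Syn2. Whether the authors' counting used strand is not given in the sources used here, so reads of such pairs may not be told apart.

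Timp4, the inhibitor known for its high level in heart, had its highest values in empty swim. Empty control ran from 24.7 through 37.1 to 54.8 CPM, empty swim from 51.5 through 65.0 to 91.9 and miR-21 control from 28.8 through 44.3 to 57.4. The 5 miR-21 swim libraries held 35.2, 12.6, 60.7, 18.2 and 54.8 CPM, of which replicate 2 was the lowest of all 23. On the log2 scale the difference with swimming was 0.79 ± 0.30 with the empty vector (edgeR adjusted p = 0.112, higher in 6 of 6) and did not pass, whereas the authors' deposited table gives 0.784 with a q-value of 0.00406. With miR-21 in swimming mice it was -0.90 ± 0.32 (adjusted p = 0.109, lower in 5 of 5). With the 3 left out, these were 0.67 and -0.68 (adjusted p = 0.161 and 0.129).

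In the authors' deposited tables, q-values under 0.05 were reached by Timp1, Timp4 and Adamts10 for swimming with the empty vector (3 of 43 members with a q-value, against 4.03% of all genes there). For miR-21 without swimming the authors' deposited table gives 7 of 43 members, all lower: Adamts2, Adamts4, Adamts10, Mmp2, Mmp14, Mmp23 and Timp1 (6.30% of all genes). For miR-21 with swimming the authors' deposited table gives Adamts9 alone (1 of 41, 0.837% of all genes), and for swimming with miR-21 it gives 0 of 41 (0.127% of all genes).

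Groups that did not overlap at all gave a short list that matched the calls only in part. With swimming and the empty vector, Mmp3 and Adamts15 were lower in every library (2 of 35, 1.68% of all genes). With miR-21 and no swimming these were Timp1, Adamts2, Adamts4 and Adamts10 (4 of 35, 2.41%), of which only Adamts4 was called. With miR-21 in swimming mice it was Adamts9 (1 of 35, 1.90%). For swimming with miR-21 there were 0 (2.76% of all genes in either direction).

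Of the 35 members, 19 were highest in 1 of the 3 libraries that stand apart, and for 15 all 3 were among the 4 highest. For 9 members none of the 3 was. They were Adamts1, Adamts3, Adamts7, Adamts9, Adamts17, Adamts19, Mmp15, Mmp17 and Timp4. In the other 20 libraries, with group means removed, log2 CPM of Mmp2 correlated with that of Adamts2 (r = 0.90), Mmp14 (r = 0.89) and Mmp23 (r = 0.87), and Mmp8 with Mmp9 (r = 0.79). Adamts7 ran opposite to Mmp2 and Mmp14 (r = -0.85 and -0.83). The median over all 595 pairs was 0.05. These are descriptions over libraries that share tissue make-up.

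Proteases and inhibitors that act with these families were given by a list of 46 genes, of which 44 were tested. With swimming and the empty vector 8 passed, against 7.46% of all genes. Adam19, a membrane protease of heart development, rose by 0.60 ± 0.14, Adamtsl4, an ADAMTS-like microfibril protein, by 0.50 ± 0.10, the proprotein convertase Pcsk6 by 0.43 ± 0.08 and the tolloid protease Tll2 by 1.01 ± 0.30. Adam8 of leukocytes fell by 1.74 ± 0.49 on the log2 scale, the lysosomal cathepsins Ctsd and Ctsl fell by 0.24 and 0.36, and Furin, which activates membrane-type MMPs, fell by 0.33 (edgeR adjusted p from 0.00238 to 0.0396 over the 8). In the remaining 20 libraries, where 11.6% of all genes passed, Adam8, Ctsl and Tll2 did not (adjusted p = 0.0521, 0.0744 and 0.0807). The other 5 did, with Plat higher and Adamtsl5 lower in addition.

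With miR-21 and no swimming 5 of the 44 passed, against 2.25% of all genes. Adam12 fell by 2.30 ± 0.58, Plat (tissue plasminogen activator) by 0.60 ± 0.14, the collagen chaperone Serpinh1 by 0.40 ± 0.11 and Adam15 by 0.34 ± 0.09, while Tll2 rose by 1.21 ± 0.30 (edgeR adjusted p from 0.0370 to 0.0496). All 5 passed again without the 3 libraries, with 5 others (5.76% of all genes). In swimming mice, Plat was lower with miR-21 (-0.66 ± 0.15, adjusted p = 0.0123) and Ctsd higher by 0.32 ± 0.07 (adjusted p = 0.00995). These 2 of 44 lie near the 4.58% of all genes called there. In the 20 libraries 10 of the 44 passed in swimming mice, against 17.3% of all genes. Bsg and Ctsd were higher, and Adam10, Adam15, Cst3, Pcolce, Plat, Plaur, Serpine2 and Serpinh1 lower. For swimming with miR-21 and for the interaction 0 of the 44 passed (0.170 and 0.541% of all genes). At an unadjusted p under 0.05 there were 5 and 18 (18.8 and 21.5% of all genes).

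Among 14 substrates tested, Comp and Dcn fell with swimming under the empty vector (log2 fold changes -4.16 ± 0.89 and -0.59 ± 0.18, edgeR adjusted p = 0.00802 and 0.0445). Acan, Comp and Eln fell with miR-21 at rest (-3.58 ± 0.83, -3.44 ± 0.85 and -1.79 ± 0.42, adjusted p = 0.0362, 0.0440 and 0.0394). The interaction passed for Comp (6.28 ± 1.22, adjusted p = 0.0291). Over all genes 7.46% passed with swimming under the empty vector, 2.25% with miR-21 at rest and 0.541% for the interaction. The shares were 4.58% with miR-21 in swimming mice and 0.170% for swimming with miR-21. Leaving out the 3 libraries, Comp with swimming and Comp and Eln with miR-21 passed, Dcn and the Comp interaction did not (adjusted p = 0.115 and 0.0815), and Acan was too low to be tested. Vcan and Thbs1 then fell with miR-21 at rest, and Vcan and Tnc in swimming mice. Without those 3 libraries, 11.6% of all genes passed with swimming under the empty vector. With miR-21 the shares were 5.76% at rest and 17.3% in swimming mice. Of 14 cytokines and transcription factors known to act on MMP genes, or their antagonists, Il1rn and Tgfb2 fell with swimming under the empty vector (-3.31 ± 0.97 and -1.10 ± 0.28, adjusted p = 0.0409 and 0.0225), and in each other comparison 0 passed. Leaving out the 3 libraries, Tgfb2 passed and Il1rn did not (adjusted p = 0.00351 and 0.228), Fosl2 fell in the same comparison, and Tgfb1, Tgfb2 and Fosl2 fell with miR-21 at rest.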

How the data were processed

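Per the labels, heart RNA was extracted with TRIzol and made into libraries with a stranded mRNA kit. Build GRCm39 is named in the submitters' processing notes, and neither aligner nor counter is given in the sources used here. The authors deposited a table of raw gene counts (whole numbers, not normalised), a table of FPKM values (counts per length and library total), and 4 comparison tables whose log2 fold change, p-value and q-value columns are the authors' own, quoted where named. Another 46 per-sample columns in those tables were not used. The group label of each sample placed 23 libraries in 4 groups, count columns were matched by sample title, and replicate 6 of miR-21 swim is not analysed here. Nothing states that each library is a separate mouse, so p-values measure spread between samples, which may be technical.

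Counts of all genes were filtered with filterByExpr, scaled by the trimmed mean of M-values (TMM) and fitted in 1 quasi-likelihood model (glmQLFit, robust) in R 4.3.3 with edgeR 4.0.16, which calls limma 3.58.1. Adjusted p-values are Benjamini-Hochberg over 13501 genes, called under 0.05. CPM are TMM-scaled. Levels of different genes were compared by FPKM only. Correlations were taken on log2 CPM (prior count 2). Alternatives were DESeq2 1.42.0, RLE scaling, no filter, a minimum mean of 1 CPM, only the 2 groups compared, the title number series as a term, each library left out, and the 3 libraries with the highest adipocyte score left out. Tables were read with pandas 2.3.3 in Python 3.11.15 and drawn with matplotlib 3.10.9. The fit was tested on simulated data. Sequences are from RefSeq GRCm38.p6 and GENCODE M21, an earlier build than the counts, so only those of the printed promoters are given.

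Members, lists and tests were chosen with earlier results of these data known. Members named in full are those called in any comparison, the 4 TIMPs, Mmp2, Mmp9 and Mmp14; others with values were chosen after their values were seen. Lists held 46 companion proteases and inhibitors, 16 substrates, 16 inducers, and markers of 9 cell types. Over all libraries, summed FPKM of marker lists ran from 1.79 to 93.3 for mesothelial, 71.5 to 1240 for activated fibroblast, 787 to 1450 for resting fibroblast and 135 to 249 for smooth muscle and pericyte genes.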

Additional observations from a re-analysis of the deposited data

Results flagged for a closer look

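In 60 combinations of a named gene and a group, 14 had a library whose gap to its nearest neighbour was large for the range of its group, by a rule that chance meets in about 1 in 20 groups. Of these, 7 lay in replicate 2 of miR-21 swim, the library with the highest neutrophil markers. Mmp9 stood there at 47.5 CPM (next highest 5.67), Timp1 at 42.1 (next 10.5), Mmp3 at 32.9 (next 12.9), Mmp14 at 130 (next 33.9), Timp2 at 411 (next 185), Adamts15 at 49.8 (next 15.9) and Adamts4 at 1.65 (next 0.368).

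Replicate 2 of empty control held the highest Mmp3, at 256 CPM (next 81.6), and the highest Adamts15, at 64.6 (next 36.0). Both are high in the same library that had 461 FPKM of neutrophil markers. Replicate 6 of miR-21 control held Mmp3 at 26.9 CPM (next 10.5), Mmp9 at 5.82 (next 1.55) and Mmp12 at 3.41 (next 1.16). It was not among the 3 libraries left out. Replicate 4 of empty swim held Timp1 at 18.4 CPM (next 8.21) and Mmp14 at 72.7 (next 47.4), and it too stayed in every fit without the 3. What sets these libraries apart was not tested.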

How the results depend on the processing

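Counts of members called, in the order swimming with the empty vector, miR-21 without swimming, miR-21 with swimming, swimming with miR-21 and the interaction, were 6, 2, 2, 0 and 0. They were 8, 14, 5, 1 and 7 with DESeq2, and 0, 10, 5, 4 and 0 with the title series as a term, whose shares of all genes stand with these counts in the results. With only the 2 groups compared they were 6, 10, 1 and 0 (8.63, 12.5, 1.26 and 0% of all genes). With no filter the first was 5 (4.76% of all genes) and the second 1 (0.842%). The second was 4 with a mean of at least 1 CPM (315 of 12833 genes). Leaving out the 3 libraries gave 8, 4, 9, 0 and 0. RLE scaling gave the same counts. Where counts moved, the cause was not tested.

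Leaving out each library in turn gave 2 to 13, 0 to 21, 2 to 6, 0 to 0 and 0 to 4 members, while all genes called ran from 607 to 1922, 17 to 2885, 330 to 1871, 0 to 86 and 18 to 358. The first was 13 without replicate 2 of miR-21 swim (14.2% of all genes). It was 3 without empty control 2, 4 or 5 or empty swim 2 or 3 (4.62 to 6.51%). Without empty swim 5 or 6 it was 2 (4.5 and 5.3%). The second was 21 without miR-21 swim 2 (21.3% of all genes). It was 0 without empty control 2, 4 or 5 or miR-21 control 1 to 5 (0.127 to 1.08%). Without empty swim 1, 2, 5 or 6 or miR-21 swim 4 it was 1 (0.868 to 1.1%). It was 9 without empty control 3 (5.26%) and 5 without miR-21 swim 5 (3.16%). Without empty control 1 or 6 or miR-21 swim 3 it was 7 (4.58, 3.23 and 3.82%). The third was 6 without miR-21 swim 2 (13.8% of all genes). The interaction was 4 without miR-21 swim 3 or 5 (2.24 and 2.63% of all genes) and 1 without empty control 1 (0.704%). Without empty control 3 or 6 or miR-21 swim 1 it was 2 (1.09, 1.29 and 1.79%).

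Of 30 alternatives per gene, the call was kept in 30 for Adamts9, 29 for Mmp3 and Timp1 (lost with the title series), 29 for Adamts19 (lost with only the 2 groups, adjusted p = 0.0682), 25 for Adamts17, 22 each for Adamts10, Adamts15 and Adamts4, 14 for Mmp2 and 12 for Mmp12. No direction reversed (0 of the 10 genes called). The title series, a term estimated from miR-21 swim alone, also ended the calls of Adamts10, Adamts15, Adamts17 and Mmp12. Single libraries whose removal ended a call were empty control 2, 4 or 5 and miR-21 control 1 to 5 for Adamts4, empty control 4 or 5 and empty swim 1, 2, 3, 5 or 6 for Adamts10, empty control 2 or 5 and empty swim 2 to 6 for Adamts15, and empty control 2 or 4 and empty swim 5 or 6 for Adamts17. Calls of Mmp2 and Mmp12 were lost without empty control 2, 4 or 5 and without several libraries of other groups. No paired analysis was possible because the labels give no replicate number shared between groups. At 3 counts, the limit that a count of 0 allows, libraries reach 0.176 to 0.253 CPM, so values of Adamts4 in miR-21 groups lie near that limit.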
